A study of Mus musculus with 12 samples.

Results

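The transcriptional response of Hif1a-intact vascular smooth muscle cells (VSMCs) to cobalt chloride (CoCl2) was read from 6 arrays of a 12-array series. The 6 arrays were those labelled Hif1afl/fl-CoCl2 (3 arrays) and Hif1afl/fl-PBS (3 arrays). The cells came from male Hif1afl/fl mice, the series' wild-type controls, in which the Hif1a alleles carry flanking loxP sites, and were kept in smooth muscle cell medium with serum and growth supplement. Treatment was 150 µM CoCl2, or phosphate-buffered saline (PBS) in the same volume, and lasted 24 h. The other 6 arrays hold the same treatments of Hif1a△SMC cells, in which Hif1a is disrupted in smooth muscle cells, and serve below only for comparison. The labels name no promoter for the recombinase. They also leave unsaid if the 3 arrays of a group are 3 cultures or animals, so every p-value rests on an array-to-array spread that could be technical. Of 97836 probes on the array, 68787 were well above background on all 3 arrays of the PBS or of the CoCl2 group and were tested, together with 4 control probes of Pgk1 and Gapdh.

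Hypoxia-inducible factor 1 pairs an oxygen-regulated alpha subunit, encoded by Hif1a, with the constant subunit ARNT. At normal oxygen, iron-dependent prolyl hydroxylases mark the alpha subunit for destruction, and cobalt ions interfere with these enzymes, so that the factor accumulates and binds a short core motif near its target genes, glycolytic enzymes among them. In vascular smooth muscle, hypoxia signalling is known for its part in proliferation, matrix production and the balance between the contractile and the synthetic state. Cobalt also acts on other metal-dependent enzymes and causes oxidative stress. The array was designed mainly for long noncoding RNAs (lncRNAs), transcripts that do not encode proteins, so most of what follows concerns such transcripts.

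The promoters of 7 loci described below, from 250 bases before to 50 bases after the RefSeq start site (assembly GRCm38.p6), are shown because the response is usually discussed through the HIF core motif. Capitals mark the core motif as ACGTG or GCGTG on the printed strand, or as CACGT or CACGC where it lies on the other strand. The letters CACGTG hold the motif on both strands. Probes rose at Pgk1, Mir22hg, Wincr1 and Lncpint, whose windows hold the motif, and at Gm39407, whose window holds none. Clones fell at Cdk2, whose window holds the motif, and at Hells, whose window holds none.
Pgk1 promoter, chrX:106186850-106187149, plus strand: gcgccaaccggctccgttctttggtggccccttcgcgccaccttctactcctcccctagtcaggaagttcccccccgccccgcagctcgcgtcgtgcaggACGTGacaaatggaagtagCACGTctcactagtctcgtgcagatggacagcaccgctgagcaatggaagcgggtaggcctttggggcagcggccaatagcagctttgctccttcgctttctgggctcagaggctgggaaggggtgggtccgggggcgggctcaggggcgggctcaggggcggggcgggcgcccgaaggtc
Mir22hg promoter, chr11:75461289-75461588, plus strand: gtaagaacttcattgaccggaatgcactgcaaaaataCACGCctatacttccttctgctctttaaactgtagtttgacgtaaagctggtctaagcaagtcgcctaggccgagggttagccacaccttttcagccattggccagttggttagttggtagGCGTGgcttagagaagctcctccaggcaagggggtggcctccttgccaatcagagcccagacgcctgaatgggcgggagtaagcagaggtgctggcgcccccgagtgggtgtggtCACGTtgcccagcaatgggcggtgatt
Wincr1 promoter, chr4:89050057-89050356, plus strand: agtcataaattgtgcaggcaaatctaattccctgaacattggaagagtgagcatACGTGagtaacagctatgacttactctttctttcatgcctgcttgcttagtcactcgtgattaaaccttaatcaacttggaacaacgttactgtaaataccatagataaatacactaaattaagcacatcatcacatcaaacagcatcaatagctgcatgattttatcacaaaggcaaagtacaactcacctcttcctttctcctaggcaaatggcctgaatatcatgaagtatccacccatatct
Lncpint promoter, chr6:31218425-31218724, minus strand: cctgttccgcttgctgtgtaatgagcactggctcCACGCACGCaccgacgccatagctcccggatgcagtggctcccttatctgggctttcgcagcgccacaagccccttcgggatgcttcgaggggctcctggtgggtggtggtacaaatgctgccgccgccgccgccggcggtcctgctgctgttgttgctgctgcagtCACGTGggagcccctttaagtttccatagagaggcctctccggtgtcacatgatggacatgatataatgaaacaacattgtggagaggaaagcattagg
Gm39407 promoter, chr9:95706658-95706957, plus strand: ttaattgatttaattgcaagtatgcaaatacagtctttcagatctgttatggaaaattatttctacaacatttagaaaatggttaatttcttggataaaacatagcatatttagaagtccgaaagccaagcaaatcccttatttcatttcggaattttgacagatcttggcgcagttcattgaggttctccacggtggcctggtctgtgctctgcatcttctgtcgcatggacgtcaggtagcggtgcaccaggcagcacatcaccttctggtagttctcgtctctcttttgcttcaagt
Cdk2 promoter, chr10:128705002-128705301, minus strand: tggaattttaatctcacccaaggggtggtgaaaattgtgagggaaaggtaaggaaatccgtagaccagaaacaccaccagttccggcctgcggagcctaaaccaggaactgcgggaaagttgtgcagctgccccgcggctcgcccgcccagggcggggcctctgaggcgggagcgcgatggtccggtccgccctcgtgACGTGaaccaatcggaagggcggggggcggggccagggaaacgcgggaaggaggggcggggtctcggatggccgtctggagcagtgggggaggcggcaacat
Hells promoter, chr19:38930740-38931039, plus strand: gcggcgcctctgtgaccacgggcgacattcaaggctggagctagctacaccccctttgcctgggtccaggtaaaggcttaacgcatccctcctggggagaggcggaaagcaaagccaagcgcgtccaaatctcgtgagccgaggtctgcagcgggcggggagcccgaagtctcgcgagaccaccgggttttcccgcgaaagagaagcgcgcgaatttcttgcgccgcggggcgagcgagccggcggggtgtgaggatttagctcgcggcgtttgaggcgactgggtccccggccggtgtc
A match describes letters only, and binding of a factor was not measured. Mir22hg is the host gene of the microRNA miR-22, and its mature products (RefSeq, GRCm38.p6, chr11, plus strand) follow with the seed, bases 2 to 8, in capitals. The microRNAs themselves were not measured; the array probe reports the host transcript.
mmu-miR-22-5p: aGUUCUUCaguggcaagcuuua
mmu-miR-22-3p: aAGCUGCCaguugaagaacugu

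The 3 PBS arrays and CoCl2 array 1 lay on slide 1, and CoCl2 arrays 2 and 3 on slide 2. On slide 1 the PBS arrays held the first 3 positions and the CoCl2 array the fourth. Treatment could therefore be compared within a slide only through 1 CoCl2 array, and there treatment and position cannot be told apart. Probes well above background made up 69.9% to 74.6% on the PBS arrays and 67.7%, 82.7% and 76.7% on CoCl2 arrays 1, 2 and 3. Its mean was 72.2% ± 2.33 (SD, n = 3) with PBS and 75.7% ± 7.56 with CoCl2 (2-sided exact permutation test, p = 0.60, smallest p possible 0.10). The scaled log2 signals of pairs of PBS arrays correlated at 0.981 to 0.985 across probes, those of pairs of CoCl2 arrays at 0.968 to 0.988, and those of a PBS with a CoCl2 array at 0.968 to 0.980. All levels below are log2 signal minus the 75th percentile of the array, so a level of 0 is that percentile itself, and levels of different probes are not set against each other.

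With CoCl2, 1629 probes rose and 1923 fell in Hif1a-intact cells. These 3552 probes were 5.16% of the 68791 tested (limma, Benjamini-Hochberg adjusted p under 0.05), with 2.37% rising and 2.8% falling. The median rise was 0.99 and the median fall -1.14 on the log2 scale, and 123 rises and 126 falls were at least 4-fold. A change of at least 2-fold was reached by 2018 of the probes past the threshold, 2.93% of those tested. The median change over all tested probes was 0.01. Among the rises, 71 probes were not well above background on any PBS array, and among the falls 35 probes were not well above background on any CoCl2 array, so these have only a bound in 1 group.

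Every one of the 3552 changes had the same direction on CoCl2 array 1, the array that shared slide 1 with the PBS arrays, although that array helped to make the calls. The median rise was 0.91 on that array and 1.03 on the pair of slide 2 arrays, and the median fall was -0.97 and -1.20. With slide as a term in the fit, which leaves the contrast to slide 1, 561 probes passed, 342 of them among the 3552, and the share of rises among them was 34.0% in place of 45.9%. Without PBS array 1, 2 or 3 the count was 2186, 1440 or 1798, without CoCl2 array 2 or 3 it was 2124 or 1158, and without CoCl2 array 1 it was 4286. With array number as a block on the 6 arrays alone the count was 7186, and 3436 of the 3552 were among them. Scaling to 10 or to 4 E1A spike-in probes moved the median change of all probes to -0.09 or -0.14, left 1866 or 1089 probes, and put the share of rises at 28.3% or 28.1%.

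Of the 4 control probes of glycolytic genes, 3 rose with CoCl2. Pgk1 encodes phosphoglycerate kinase, a textbook HIF target whose promoter is printed above. Its 3′ probe read 3.83, 3.66 and 3.94 on the PBS arrays and 5.46, 5.41 and 5.69 on the CoCl2 arrays. Both groups were tight and lay more than a log2 unit apart. The change was 1.71 ± 0.16 on the log2 scale (SE of the fit, n = 3 a group, limma adjusted p = 0.000288), a 3.27-fold rise. The 5′ probe rose by 1.81 ± 0.18 (limma adjusted p = 0.000529). With slide in the fit the rises were 1.65 and 1.76 (adjusted p = 0.017 and 0.026).

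Gapdh, the gene of another enzyme of glycolysis, passed at 1 of its 2 probes. Its 3′ probe read 4.03, 4.12 and 4.22 with PBS and 4.91, 4.90 and 5.08 with CoCl2. The groups did not overlap, as was true of 24.7% of all probes tested (13.1% with CoCl2 above and 11.6% with it below), and the rise was 0.84 ± 0.13 (limma adjusted p = 0.00489). The 5′ probe read 6.33, 6.43 and 6.55 against 6.96, 6.73 and 6.92. Its difference of 0.43 ± 0.14 missed the threshold (limma adjusted p = 0.101). The difference between the 3′ and the 5′ Gapdh probe was -2.33 to -2.30 on the PBS arrays and -2.06 to -1.84 on the CoCl2 arrays, while that of Pgk1 was 2.79 to 2.84 and 2.70 to 2.75. The rise at the Gapdh 3′ probe did not pass with slide in the fit (0.78, adjusted p = 0.10) or after scaling to 4 E1A probes (0.69, adjusted p = 0.37).

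**Figure D1:**
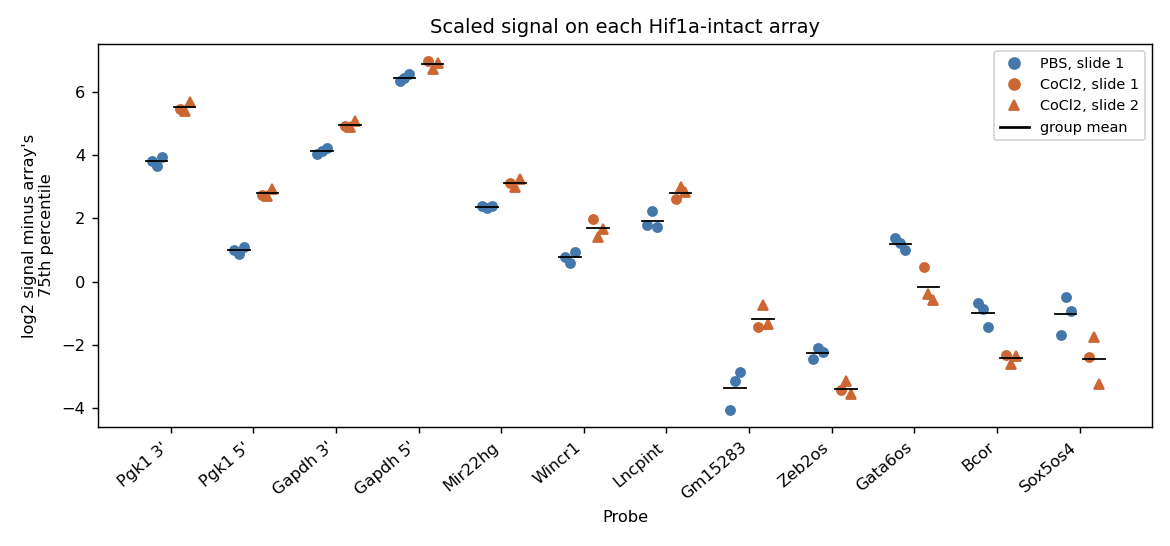
Scaled log2 signal of 12 probes on the 6 Hif1a-intact arrays, with probes on the x axis and log2 signal minus the 75th percentile of the array on the y axis. Points are arrays, circles lie on slide 1 and triangles on slide 2, and lines are group means. The groups did not overlap at any of these probes. Those other than Pgk1 and Gapdh were chosen partly for that, or after their values were seen. Of all tested probes, 24.7% did not overlap. The Pgk1 3′ mean was 3.81 with PBS and 5.52 with CoCl2.

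Of 159 tested probes that a RefSeq accession ties to a gene with an established symbol, 3 rose and 6 fell, 5.66% in all against 5.16% of all probes. All 3 that rose were on a list of established lncRNAs. Mir22hg, the miR-22 host gene, read 2.39, 2.32 and 2.40 with PBS and 3.12, 2.98 and 3.26 with CoCl2. The CoCl2 arrays all stood above the PBS arrays, which lay within 0.1 of each other. The rise was 0.75 ± 0.17 (limma adjusted p = 0.0246), or 1.68-fold. Wincr1, an RNA first described as induced by WNT signalling in fibroblasts, read 0.79, 0.59 and 0.94 with PBS and 1.97, 1.42 and 1.66 with CoCl2. It was highest on the slide 1 CoCl2 array and rose by 0.91 ± 0.19 (limma adjusted p = 0.0163). Lncpint, a p53-induced RNA that works with Polycomb repressive complexes, read 1.80, 2.23 and 1.72 with PBS and 2.60, 2.99 and 2.83 with CoCl2. Its rise of 0.89 ± 0.23 was close to the threshold (limma adjusted p = 0.0484).

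These rises were sensitive to single arrays. Without CoCl2 array 3 the adjusted p was 0.126 for Mir22hg and 0.169 for Lncpint, and without PBS array 2 it was 0.081 for Wincr1. Mir22hg also missed the threshold without PBS array 1, 2 or 3, Wincr1 without CoCl2 array 3, and Lncpint without any array other than CoCl2 array 1. The 3 rises kept their direction in all fits.

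The 6 established loci that fell include transcripts from the opposite strand of transcription factor genes. Zeb2os is transcribed opposite Zeb2, a repressor known for its part in epithelial-mesenchymal transition. It read -2.43, -2.08 and -2.23 with PBS and -3.43, -3.13 and -3.56 with CoCl2. Every CoCl2 array was below every PBS array, and the fall was -1.13 ± 0.20 (limma adjusted p = 0.00762), passing in each fit that left out 1 array. A RIKEN clone at Zeb2 itself differed by -0.47 (adjusted p = 0.458) and did not pass.

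Gata6os lies opposite Gata6, a transcription factor of differentiated vascular smooth muscle. It read 1.38, 1.21 and 1.02 with PBS and 0.47, -0.38 and -0.58 with CoCl2. The slide 1 CoCl2 array stood nearest to the PBS arrays, and the fall was -1.37 ± 0.26 (limma adjusted p = 0.0129). Another probe of Gata6os differed by -0.95 (adjusted p = 0.0645), in the same direction but past no threshold. With slide in the fit the first probe's difference was -0.73 (adjusted p = 0.28). Without PBS array 1, PBS array 2, CoCl2 array 2 or CoCl2 array 3 it also missed the threshold, at an adjusted p of up to 0.069. Sox5os4, a predicted RNA opposite Sox5, read -1.69, -0.49 and -0.91 against -2.38, -1.74 and -3.24, groups that met closely. It fell by 1.43 ± 0.36 on the log2 scale (limma adjusted p = 0.0413), and did not pass without PBS array 2, PBS array 3, CoCl2 array 1 or CoCl2 array 3 (adjusted p up to 0.168). In all, 59 probes of 53 such opposite-strand genes were tested, a family chosen after the values were seen, and 3 fell, none rose and the median change was 0.01. Of all tested probes, 2.8% fell and 2.37% rose.

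Noncoding records of 3 protein-coding genes fell too. Bcor encodes a corepressor of the BCL6 factor, and its noncoding record read -0.67, -0.87 and -1.44 with PBS and -2.33, -2.58 and -2.34 with CoCl2. The spread was wider with PBS than with CoCl2, and the fall was -1.42 ± 0.22 (limma adjusted p = 0.00409). Rnf227, a RING finger protein gene, fell at both of its probes, by 1.33 ± 0.29 at the curated record (limma adjusted p = 0.0219) and by 1.63 ± 0.42 at a RIKEN clone (limma adjusted p = 0.0463). Alg13, which encodes part of an enzyme of N-glycan assembly, fell by 0.78 ± 0.16 (limma adjusted p = 0.0156). Neither Alg13 nor the curated Rnf227 record passed without PBS array 1, PBS array 2, CoCl2 array 2 or CoCl2 array 3 (adjusted p up to 0.079 and 0.112). Probes of such records are named for a noncoding RNA of the locus. Whether they also read its protein-coding messenger RNA was not examined. None of the 9 established loci passed with slide in the fit, and 3 passed after scaling to 4 E1A probes.

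The other established lncRNAs differed less or varied more between arrays. Of 26 listed lncRNA genes tested with 30 probes, 3 rose and 1 fell, beside 2.37% rising and 2.8% falling among all probes, with a median change of 0.03 against 0.01 over all probes. Norad, an RNA that binds Pumilio proteins, differed by 0.47 (adjusted p = 0.152), with groups that did not overlap. Morrbid, an RNA known to repress Bcl2l11, differed by 0.44 (adjusted p = 0.185) at 1 probe, without overlap, and by 0.09 at its other probe, where the groups overlapped. Peg13, an imprinted RNA, differed by -0.62 (adjusted p = 0.112) and Snhg18 by -0.61 (adjusted p = 0.177). Carmn, a lncRNA characteristic of smooth muscle, read a mean of 0.72 with PBS and 0.59 with CoCl2 and its groups overlapped. Of the snoRNA host genes, 7 were tested and none passed, with changes from -0.61 to 0.16.

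A noncoding model overlapping Hif1a itself was among the larger rises, named after its values were seen. The model, Gm15283, read -4.04, -3.13 and -2.86 with PBS and -1.44, -0.73 and -1.33 with CoCl2. The groups were separated by more than a log2 unit, and the rise was 2.18 ± 0.30 (limma adjusted p = 0.00234), or 4.52-fold. It passed in each fit that left out 1 array, and with slide in the fit it stood at 1.90 (adjusted p = 0.096). The tables used here give no strand for its probe, so a transcript of Hif1a and one of the overlapping model cannot be told apart. No probe was named Hif1a.

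Noncoding transcripts at other genes of the prepared lists mostly stayed below the threshold. Of 51 tested probes of noncoding genes that overlap a listed protein-coding gene or lie within 10 kb of one, 3 passed, Gm15283 upwards and Zeb2os and Gm12295 downwards. Of all tested probes, 5.16% passed. Gm12295, known here through a RIKEN clone, lies beside Myocd, the gene of the smooth muscle coactivator myocardin. It read -1.57, -0.98 and -1.32 with PBS and -2.44, -2.21 and -2.98 with CoCl2, without overlap, and fell by 1.25 ± 0.27 (limma adjusted p = 0.0198). Without CoCl2 array 3, PBS array 2 or PBS array 3 it did not pass, at an adjusted p of up to 0.102. Gm30586, which overlaps Myocd, differed by -0.27 (adjusted p = 0.514), and the median over the 51 probes was -0.05.

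Further noncoding genes were singled out after their values were seen. Gm39407 overlaps Trpc1, the gene of a cation channel subunit, and both of its probes rose, by 1.77 ± 0.32 and 1.44 ± 0.30 (limma adjusted p = 0.00924 and 0.0175). Gm15441, which overlaps Txnip, the gene of a thioredoxin inhibitor, read -2.71, -2.74 and -2.73 with PBS and -2.28, -1.93 and -2.13 with CoCl2. The PBS arrays were nearly identical, and the rise was 0.61 ± 0.15 (limma adjusted p = 0.0338). It did not pass with array number as a block (adjusted p = 0.0636), nor without any 1 array other than CoCl2 array 1 (adjusted p up to 0.121). The second Gm39407 probe did not pass without PBS array 2, CoCl2 array 2 or CoCl2 array 3 (adjusted p up to 0.084).

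RIKEN clones are complementary DNAs of mouse transcripts, and a clone listed under a gene can be an intron-retaining, antisense or alternative transcript of that locus. Of 544 tested clones at 522 loci with an established symbol, 19 rose and 18 fell, 6.80% in all against 5.16% of all probes. The clone at Prelid2, a PRELI-domain gene, had the largest rise. It read -3.72, -6.25 and -5.38 with PBS and -1.27, -0.98 and -0.50 with CoCl2. Only 1 PBS array measured it well above background, so the fitted rise of 4.2 ± 0.54 (limma adjusted p = 0.00188) rests on dim PBS signals. With slide in the fit it was 3.84 (adjusted p = 0.058).

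The clone at Sod1, which encodes the copper-zinc superoxide dismutase of the oxidative stress list, read -2.33, -2.56 and -2.52 with PBS and -1.26, -0.67 and -0.83 with CoCl2. All CoCl2 arrays were more than a log2 unit above the PBS arrays, and the rise was 1.55 ± 0.27 (limma adjusted p = 0.00773). With slide in the fit, which leaves the contrast to 1 CoCl2 array, the Sod1 rise was 1.21. Clones at 2 of 3 proteasome genes with a tested clone rose, beside 2.37% of all tested probes. This family of 3 was chosen after the values were seen. Psmd14, the deubiquitinase of the lid, read -3.84, -3.15 and -2.97 against -2.22, -1.59 and -1.33 and rose by 1.60 ± 0.38 (limma adjusted p = 0.0337). Psmd11, a scaffold subunit of the lid, rose by 1.20 ± 0.24 (limma adjusted p = 0.0137), and the clone at Psmd9, an assembly chaperone, differed by 0.22 and did not pass. The Psmd11 clone did not pass without PBS array 2 or CoCl2 array 3 (adjusted p up to 0.068), and the Psmd14 clone passed only without CoCl2 array 1 among the fits that left out 1 array (adjusted p up to 0.158). With array number as a block shared by all groups the Psmd14 clone did not pass (adjusted p = 0.0507).

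Of the other large rises, the clone at Dst, the gene of the linker protein dystonin, read -3.33, -3.55 and -3.77 with PBS and -2.20, -2.30 and -1.99 with CoCl2 and rose by 1.39 ± 0.19 (limma adjusted p = 0.00268). With slide in the fit, which leaves the contrast to 1 CoCl2 array, the Dst rise was 1.35. The clone at Ttll7, a tubulin polyglutamylase gene, rose by 1.37 ± 0.25 (limma adjusted p = 0.00904), and that at Kif2a, the gene of a kinesin that depolymerizes microtubules, by 1.19 ± 0.30 (limma adjusted p = 0.0457). Pvr, an adhesion receptor of the nectin group, read 1.77, 1.36 and 1.58 against 2.59, 2.87 and 3.37 and rose by 1.37 ± 0.25 (limma adjusted p = 0.00937). The remaining clones of the 12 largest rises were at Rmi2, a subunit of the BLM helicase complex, Trnt1, the enzyme that adds the CCA end of transfer RNAs, Tox4, and Mrpl47, a protein of the mitochondrial ribosome. Their rises ran from 0.96 to 1.42. The Trnt1 clone did not pass in any fit that left out 1 array, and those at Kif2a, Tox4 and Mrpl47 did not in 5 of 6 such fits, with adjusted p up to 0.189, 0.210, 0.132 and 0.147. The Rmi2 clone did not pass without PBS array 1, 2 or 3 or CoCl2 array 3 (adjusted p up to 0.111), nor that at Pvr without PBS array 2 or CoCl2 array 3 (adjusted p up to 0.051). With array number as a block the Trnt1 clone stood at an adjusted p of 0.067, and with that block shared by all groups the Mrpl47 clone stood at 0.0594.

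The clone at Cdk2, the kinase of the step from G1 to S phase, read -1.61, -1.57 and -1.74 with PBS and -3.54, -3.22 and -3.44 with CoCl2. Both groups were tight, 2 of 3 CoCl2 arrays were well above background, and the fall was -1.76 ± 0.15 (limma adjusted p = 0.000163). The clone at Hells, a chromatin remodeller needed for DNA methylation, read 0.37, 0.23 and 0.16 against -1.42, -1.77 and -2.02. All CoCl2 arrays were more than a log2 unit lower, and the fall was -1.99 ± 0.20 (limma adjusted p = 0.000531). Both passed in all fits run, with -1.90 and -1.67 when slide was in the fit (adjusted p = 0.006 and 0.024).

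The clone at Troap, the gene of a spindle-associated protein, fell by 1.67 ± 0.44 at the edge of the threshold (limma adjusted p = 0.0499), that at Rttn, a centriole assembly gene, by 1.11 ± 0.19 (limma adjusted p = 0.00762), and that at Cep83, a gene of the centriole's distal appendages, by 1.00 ± 0.17 (limma adjusted p = 0.00786). Troap did not pass in any fit that left out 1 array, at an adjusted p of up to 0.189, nor with array number as a block shared by all groups (adjusted p = 0.0605). Kif2c, another listed cell cycle gene and a kinesin of mitosis, had a clone that differed by -0.29 (adjusted p = 0.576), so 1 of the 2 listed cell cycle genes with a clone passed. Clones at the centrosomal genes Cep170, Cep295 and Cep95 did not pass, and the median of this family's 4 clones, a family chosen after the values were seen, was -0.30.

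The clone at Col11a1, a fibrillar collagen of the matrix list, read -1.65, -0.98 and -1.29 with PBS and -2.98, -2.71 and -4.38 with CoCl2. The third CoCl2 array was far below the others, 2 of 3 CoCl2 arrays were well above background, and the fall was -2.05 ± 0.51 (limma adjusted p = 0.0399). Without CoCl2 array 3 it was -1.54 with an adjusted p of 0.174, and it did not pass without PBS array 1, 2 or 3, or with array number as a block shared by all groups (adjusted p = 0.0668). The clone at Lamb1, a laminin chain of the same list, differed by -0.06. Myom1, a sarcomeric M-line protein, read -0.99, -0.20 and -1.03 against -2.40, -2.05 and -2.96, without overlap, and its clone fell by 1.73 ± 0.32 (limma adjusted p = 0.00975, and 0.055 without CoCl2 array 3). The other clones of the 12 largest falls were at Jpt2, Dhdh, Scrn1 and Ctso beside the Rnf227 clone already described, with falls of 1.05 to 1.63 on the log2 scale. The Dhdh and Rnf227 clones were well above background on 2 of 3 CoCl2 arrays. Among fits that left out 1 array, the Ctso clone passed in none, the Rnf227 clone in 1 of 6, those at Jpt2 and Scrn1 in 2 of 6 and that at Dhdh in all 6, with CoCl2 array 3 among the arrays that ended each lost call.

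**Figure D2:**
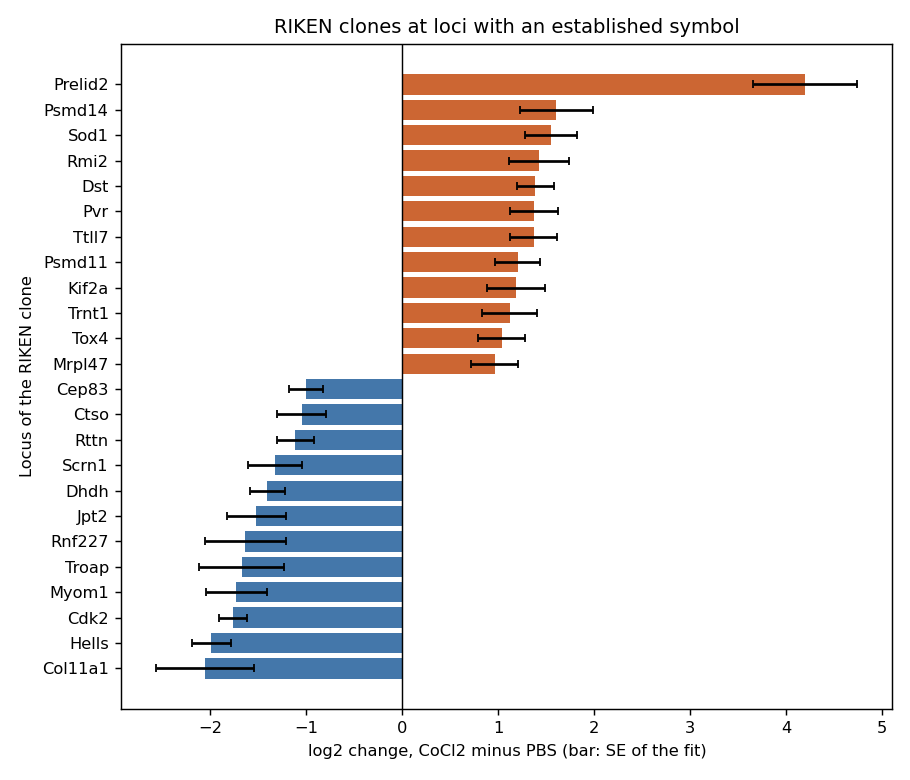
Change with CoCl2 at the 12 largest rises and 12 largest falls among RIKEN clones at loci with an established symbol. The x axis gives the log2 change, CoCl2 minus PBS, with the SE of the fit as error bars, and the y axis the locus. The changes run from -2.05 at Col11a1 to 4.2 at Prelid2.

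Few contractile markers of smooth muscle could be matched to a probe by name. For Agilent catalogue probes no table at hand pairs an ID with a gene, so markers among them could not be looked up. Of 18 listed contractile genes, Cald1 and Synpo2 were matched, through 3 tested clones, and none passed. The Cald1 clone, from the gene of the actin-binding protein caldesmon, had a mean of 2.40 with PBS and 2.49 with CoCl2. No tested probe could be matched to a listed fibroblast, endothelial, macrophage or adipocyte marker, and 1 of 3 pericyte markers, Rgs5, was tested and differed by 0.28 without passing. The labelled cell type could not be checked further, and the part of other cell types in the results was not tested. In bulk RNA, fewer cells of a type and less RNA per cell cannot be told apart.

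Across all prepared lists, 42 of 396 genes could be matched by name to a tested probe, with 47 probes in all. Of these probes 4 rose and 4 fell, beside 2.37% rising and 2.8% falling among all probes. None of 45 listed HIF targets and none of 21 glycolysis genes could be matched to a tested probe outside the control probes. Agilent catalogue probes, which have no gene name here, could not be searched for them. Of the HIF pathway, the clone at Ep300, a coactivator of HIF, differed by 0.04. The clone at Atg12, of the autophagy list, differed by 0.63 (adjusted p = 0.125) and Trp53cor1, the lincRNA-p21 gene, by 0.30 (adjusted p = 0.350). The median over the 47 probes was -0.00168, against 0.00924 over all probes.

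Probe classes are set beside all tested probes, of which 5.16% passed, with rises making up 45.9% of the calls. Agilent catalogue probes, for which no table at hand pairs an ID with a gene, had the highest share past the threshold, 7.08%, and more falls (1318) than rises (833). Rises outnumbered falls among NONCODE transcripts (394 against 300), RIKEN clones (284 against 215), predicted RefSeq RNAs (92 against 66) and curated RefSeq RNAs (17 against 11). Ultraconserved regions, stretches that are identical between distant mammals, gave 1 rise and 7 falls among 185 probes, 4.32% in all. These counts are descriptions of the classes and carry no test. The classes were not matched for signal level. Scaling to 10 or to 4 E1A probes put the share of rises over all calls at 28.3% or 28.1%.

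**Figure D3:**
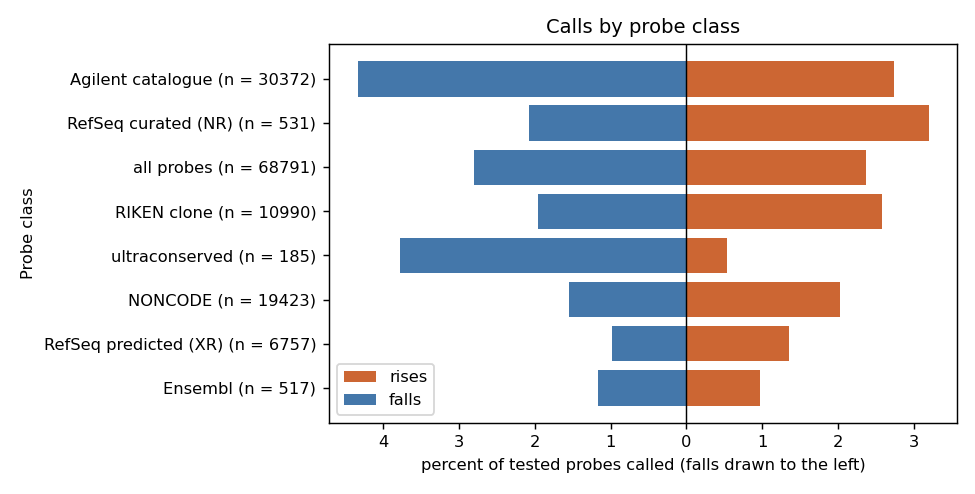
Percent of tested probes that rose (to the right) or fell (to the left) with CoCl2 in each probe class, on the x axis, with the classes and their number of tested probes on the y axis. Falls exceeded rises among Agilent catalogue and ultraconserved probes, and 7.08% of the catalogue probes passed.

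The largest changes by class were at transcripts without an established name. The RIKEN clone A230013K13 was not well above background on any PBS array, read -0.26, -0.05 and -0.28 with CoCl2, and was at least 15.1-fold higher with CoCl2 (limma adjusted p = 7.09e-05). The bound sets the CoCl2 mean against the higher of the probe's own PBS signal and the lowest signal well above background on that array. By the same measure the NONCODE transcript NONMMUT035742 was at least 6.16-fold higher (limma adjusted p = 0.000104), and NONMMUT036116 at least 4.73-fold lower (limma adjusted p = 0.0013). NONMMUT046987 was measured on all 6 arrays. It read -3.12, -3.51 and -3.56 with PBS and 0.00, 0.36 and -0.10 with CoCl2, more than 3 log2 units apart, and rose by 3.48 ± 0.21 (limma adjusted p = 2.75e-05).

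Among predicted RefSeq RNAs, Gm29992 read -2.53, -3.28 and -2.16 with PBS and 0.00, 0.22 and 1.01 with CoCl2, and rose by 3.07 ± 0.57 (limma adjusted p = 0.0106, and up to 0.060 without PBS array 2 or CoCl2 array 3). Gm41056 fell by 2.90 ± 0.38 (limma adjusted p = 0.00212), but only 1 CoCl2 array measured it well above background, so the fall rests on dim CoCl2 signals. The ultraconserved region uc.mouse.464 fell by 1.94 ± 0.24 (limma adjusted p = 0.00156) and was well above background on 2 of 3 CoCl2 arrays. Of the same class, uc.mouse.460 was at least 2.52-fold lower (limma adjusted p = 0.0015), and uc.mouse.387 rose by 0.62 ± 0.14 (limma adjusted p = 0.029). The last did not pass with array number as a block (adjusted p = 0.0519), nor without PBS array 1, 2 or 3 or CoCl2 array 3. Among curated RefSeq RNAs, 2700099C18Rik fell by 1.60 ± 0.25 (limma adjusted p = 0.00499). Gm12505, of the same class, rose by 1.28 ± 0.30 (limma adjusted p = 0.0337) but did not pass in any fit that left out 1 array (adjusted p up to 0.121).

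The HIF core motif was common in promoters at large. It lay in the 300-base window of 46.7% of 27025 genes in the RefSeq table and of 43.2% of 2315 loci with a tested probe. The share was 60% of 40 loci with a probe that rose and 53.1% of 32 loci with one that fell. Both shares are descriptions without a test, and 16 of the 40 loci that rose had no match in this window.

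The response was then set beside that of Hif1a△SMC cells under the same dose and time. The CoCl2 arrays of the deleted cells had 51.9% to 58.5% of probes well above background, against 72.2% to 74.0% on their PBS arrays, and lay on slide 3, which held no intact array. The 75th percentile used for scaling was 8.09 to 8.28 (log2) on the deleted CoCl2 arrays and 9.02 to 9.16 on the deleted PBS arrays. The size of every genotype difference below therefore depends on this scaling. For Pgk1 and the other loci of this paragraph the difference is given under this scaling alone. Its effect can be read at NONMMUT046987, where the genotype difference was 3.44 with the 75th percentile. It was 4.37 after scaling to 4 E1A probes, 3.26 after scaling to 10 and 3.04 after scaling to the median. Each of these scalings shifts all probes of an array equally, so the differences of this paragraph would move as well. The part of detection and slide in the differences below was not tested. In deleted cells 53.7% of the tested probes passed, 20.6% rising and 33.1% falling. Pgk1 rose in the deleted cells by 1.70 at the 3′ probe. With the 75th percentile scaling the effects of the 2 genotypes differed by 0.01 ± 0.22 (limma adjusted p = 0.988). Mir22hg rose by 1.14 in deleted cells, Wincr1 by 1.19 and Lncpint by 0.90, and the differences from the intact cells, -0.39 ± 0.23, -0.28 ± 0.26 and -0.01 ± 0.33, did not pass. The values in deleted cells were -0.51 for Zeb2os, -0.24 for Gata6os and 1.12 for Gm15283, with differences of -0.62 ± 0.28, -1.12 ± 0.37 and 1.06 ± 0.42 that did not pass either (adjusted p = 0.126, 0.0516 and 0.091).

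Of the 67 named probes that passed in intact cells, 9 passed the test of a difference between genotypes. Of all tested probes, 21.3% did (18.3% with the intact effect higher and 3.06% with it lower). NONMMUT046987 differed by 0.04 in deleted cells, so the difference was 3.44 ± 0.30 (limma adjusted p = 0.000317), and it passed in all 21 other fits run. Gm29992 differed by -0.53 there, a difference of 3.60 ± 0.81 (limma adjusted p = 0.0115), which did not pass with slide as a term and passed in the other fits. NONMMUT046987 and Gm29992 were each well above background on only 1 of 3 deleted CoCl2 arrays, so their values in deleted cells rest partly on dim signals. At NONMMUT036116 neither genotype was well above background on any CoCl2 array, and at NONMMUT035742 no intact and only 1 deleted PBS array was, so their values rest on dim signals. The Rmi2 clone was not well above background on any deleted array, so its difference of 2.34 ± 0.44 (limma adjusted p = 0.00578) sets a measured rise against dim signals. The Hells clone fell more in intact than in deleted cells, by a difference of -1.02 ± 0.29 (limma adjusted p = 0.0277), and after scaling to 4 E1A probes the difference was -0.08 (adjusted p = 0.881).

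Genotype differences at adjusted p under 0.05 (limma) were then counted among the probes that passed in intact cells. Of the 1629 rises, 44 (2.70%) were larger than in deleted cells and 55 (3.38%) smaller. Of the 1923 falls, 164 (8.53%) were larger and 22 (1.14%) smaller. Over all tested probes the intact effect was higher, as in a larger rise, at 18.3%. It was lower, as in a larger fall, at 3.06%. These comparisons use the arrays that chose the probes. The median change of the rises was 0.99 in intact and 1.26 in deleted cells, and that of the falls was -1.14 and -0.76.

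**Figure D4:**
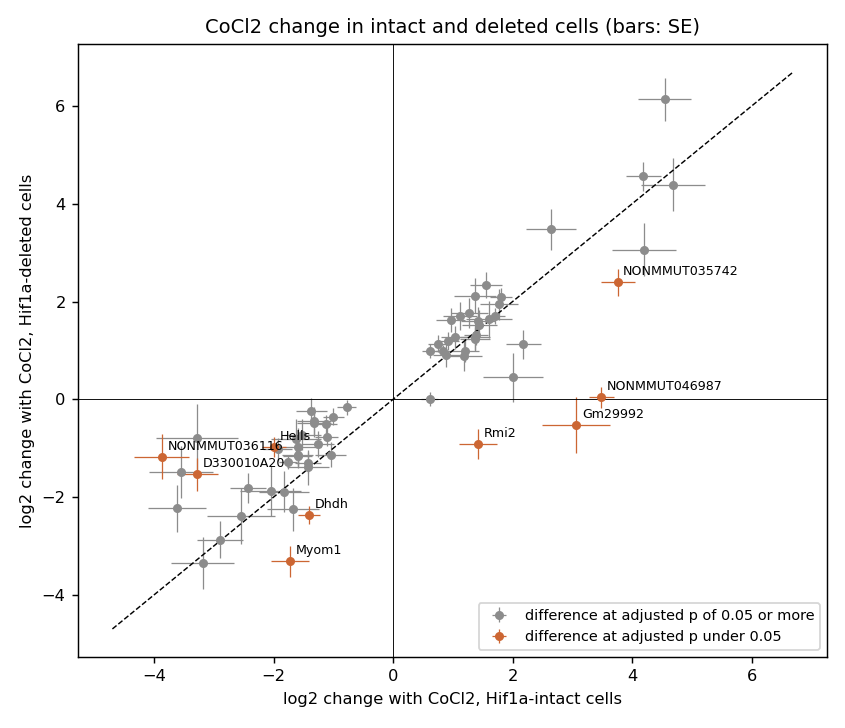
Change with CoCl2 in Hif1a-intact cells (x axis, log2) against that in Hif1a-deleted cells (y axis, log2) for the 67 named probes that passed in intact cells, with SE of the fit as bars and the line of equal change. The 9 coloured probes had different effects in the 2 genotypes, among them NONMMUT046987 with 3.48 in intact and 0.04 in deleted cells.

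Across 24 other settings, none of the named probes changed direction. The Pgk1 probes, the Cdk2, Hells and Dhdh clones, NONMMUT035742, NONMMUT046987, NONMMUT036116, A230013K13, D330010A20, A_51_P503625, A_51_P510891, XR_393878, Gm41056 and uc.mouse.464 passed in every setting they were tested in. With slide in the fit, 16 of the 67 passed, and after scaling to 4 E1A probes 38 did.

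**Figure D5:**
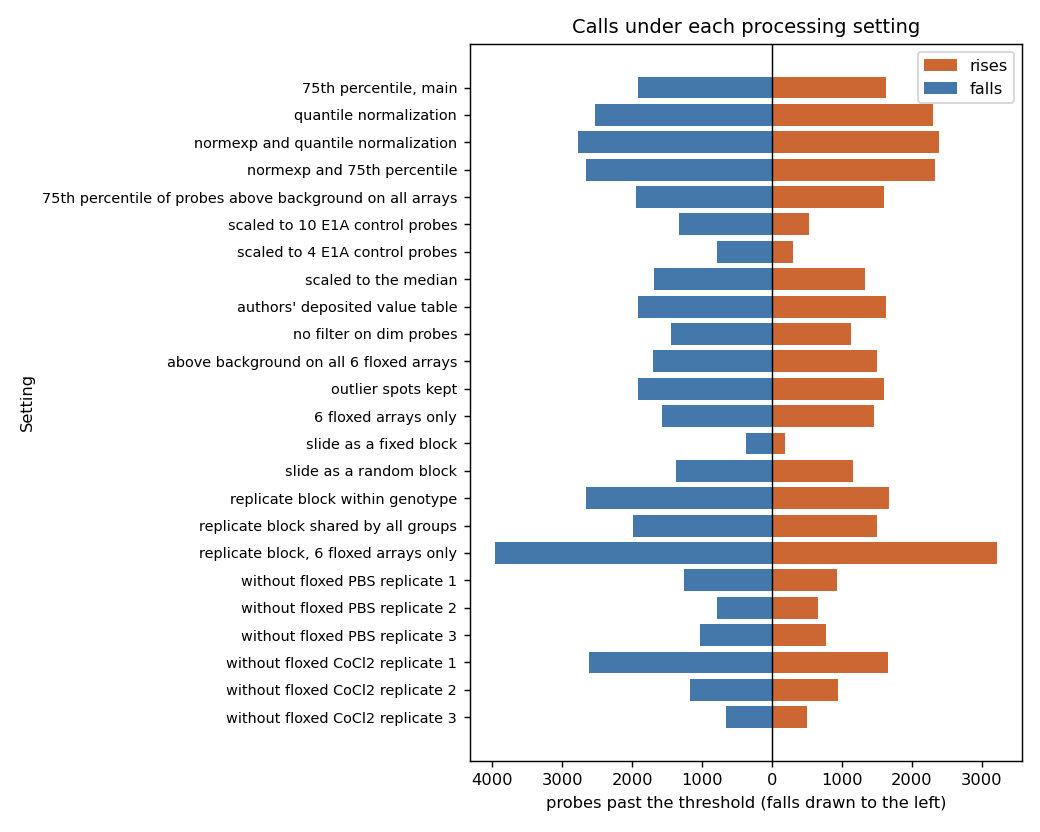
Number of probes that rose (to the right) or fell (to the left) with CoCl2, on the x axis, under each processing setting, on the y axis. The total runs from 561 with slide as a fixed block to 7186 with array number as a block on the 6 arrays, beside 3552 in the main setting.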

How the data were processed

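Cy3-labelled cRNA made from total RNA of VSMCs was put on Agilent arrays, with 1 sample on each, per the labels' protocols. The authors' scanner files give linear intensity per spot from Feature Extraction 11.5.1.1, per the file headers, whereas version 9.1 is named in the submitters' processing notes. The authors' deposited value table is in log2 units and, to within 0.01, differed from the scanner values by a constant, except at 1 probe on each of 3 arrays.

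Outlier spots were left out, and the processed signal was averaged as log2 per probe and centred on the 75th percentile of each array. All 12 arrays were fitted with limma 3.58.1 in R 4.3.3, with 1 mean per group, Benjamini-Hochberg adjustment over 68791 probes and a threshold of 0.05; the fit was tested on simulated data. RefSeq names came by accession or clone name (assembly GRCm38.p6). Named were the control probes, list members past the threshold, the largest changes without overlap at established symbols and at clones, and the largest changes by class; genes added after their values were seen are marked. The members, lists and rule were chosen with earlier results of these data known. Array numbers in the titles were checked as pairs: deviations from the group means correlated at 0.374, 0.396 and 0.443 between same-numbered PBS and CoCl2 arrays, so blocks on the number were fitted as alternatives, while the p-values printed come from the fit without a block unless a block is named. Alternatives covered background, scaling, filter, slide, pairing and single arrays. Normexp used the median spot signal.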

Additional observations from a re-analysis of the deposited data

Results flagged for a closer look

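At the 9 named probes below, the test of a difference in CoCl2 effect between Hif1a-intact and Hif1a-deleted cells passed (limma, adjusted over all tested probes). The difference, intact minus deleted, was 3.44 at NONMMUT046987, 3.60 at Gm29992, 2.34 at the Rmi2 clone and 1.37 at NONMMUT035742. It was 1.59 at the Myom1 clone and 0.97 at the Dhdh clone, where the fall was smaller in intact cells. It was -2.69 at NONMMUT036116, -1.74 at the RIKEN clone D330010A20 and -1.02 at the Hells clone. At NONMMUT036116 no CoCl2 array of either genotype was well above background, and at NONMMUT035742 no intact and 1 of 3 deleted PBS arrays was, so neither value measures a difference of effects. The Myom1 and Dhdh clones were not well above background on any deleted array with CoCl2, and the Rmi2 clone not on any deleted array. NONMMUT046987 and Gm29992 were each well above background on 1 of 3 deleted arrays with CoCl2. With slide as a fixed block, 1 of the 9 differences passed, that at NONMMUT046987. Over all other settings run, the difference did not pass in 14 of 20 at NONMMUT035742 (values 0.29 to 2.30), 9 of 20 at Dhdh, 8 of 21 at Hells (-1.42 to -0.08), 8 of 21 at Myom1, 6 of 21 at D330010A20 (-2.24 to -0.72), 3 of 20 at NONMMUT036116, 2 of 21 at Rmi2 and 1 of 21 at Gm29992. The groups of 3 arrays were too small for a test of single outlying samples.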

How the results depend on the processing

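Besides the values given with the results, the count of 3552 probes past the threshold became 1866 with scaling to 10 E1A probes, 1089 with scaling to 4 E1A probes (chosen after seeing the data), 561 with slide as a fixed block or slide 1 alone, 7186 with the replicate block on the 6 arrays, and 2018 when at least 2-fold change was required. Leaving out single arrays gave 1158 to 4286 probes. The other settings gave 2543 to 5172. The difference in the share of probes well above background, 3.48 percentage points, was -0.00798 to 7.49 with single arrays left out and reversed without CoCl2 array 2. The cause was not tested. The genotype difference of the Dhdh clone reversed to -0.40 with normexp and the 75th percentile, and that of the Myom1 clone to -0.62 with the same setting and -0.11 with normexp and quantile normalization. With the replicate block within genotype, which gave 4334 probes, Trnt1, Gm15441 and uc.mouse.387 lost their calls, and NONMMUT035742 its genotype difference (adjusted p = 0.054); with the number shared by all groups, which gave 3481, Psmd14, Mrpl47, Col11a1, Troap, ENSMUST00000194375, Trnt1 and Gm15441 lost theirs. These fits changed no other named call and no other genotype difference named. With 3 arrays a group, and probes near background bounded on 1 side, small changes could not be resolved.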
